A study of Mus musculus with 11 samples.

Results

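Primary mouse granulosa cells in which Akt1 had been silenced were compared by the makeup of the siRNA pool they received. The 4 pools each held 3 of 4 siRNAs against Akt1, numbered 6 to 9. Pool 1 held siRNAs 6, 7 and 8, pool 3 held 6, 7 and 9, and pool 4 held 7, 8 and 9. Pool 2 held 6, 8 and 9 and is the pool without siRNA 7. The comparison took the 6 libraries of pools 1, 3 and 4, called the siRNA 7 pools here, against the 2 libraries of pool 2, so it used 8 of the 11 libraries in the series. The other 3 libraries came from cells given a nontargeting scrambled siRNA (scramble) and are quoted as levels, outside the test.

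All 8 libraries came from cells of RjOrl:SWISS mice, an outbred stock, cultured in plates and given 30 pmol of siRNA in all with the lipid reagent Lipofectamine RNAiMax. The transfection mix was taken off after 5 h and RNA was extracted at 30 h. The labels do not give the age of the mice or say whether the libraries of a pool came from separate animals or cultures. The p-values therefore rest on the spread between these libraries alone, and that spread may be technical. Pools carry other names in the protocol than in the titles, and matching the names by their number is an assumption. Each siRNA 7 pool also lacks 1 of the siRNAs 6, 8 and 9, all of which pool 2 holds. Presence of siRNA 7 and a smaller share of the other siRNAs therefore cannot be told apart.

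Granulosa cells surround the oocyte in the ovarian follicle, respond to FSH and make estradiol and, after ovulation, progesterone. AKT1 is a protein kinase switched on by PI3K, and it restrains FOXO transcription factors. An siRNA works through its guide strand, which an Argonaute protein uses to find and cut the matching mRNA. Guide strands can also lower other transcripts through a short match in the 3' UTR, the way microRNAs act.

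Akt1 was silenced in all 8 libraries. Its level was 54.2 and 56.9 CPM (counts scaled to library size) in pool 2, 58.2 and 63.5 in pool 1, 55.1 and 62.2 in pool 4, and 77.7 and 79.9 in pool 3, beside 412 to 532 in scramble. Pool 3 lay above every other pool, while pools 1 and 4 overlapped pool 2. The siRNA 7 pools thus held a little more Akt1 mRNA than pool 2, by 0.24 ± 0.04 on the log2 scale (SE, 6 against 2 libraries, edgeR adjusted p = 0.000128). The difference was 0.50 ± 0.05 for pool 3 (adjusted p = 5.22e-08), 0.13 ± 0.05 for pool 1 (adjusted p = 0.064) and 0.08 ± 0.05 for pool 4 (adjusted p = 0.295). With the spread among the 3 pools counted as error, the Akt1 call was lost (adjusted p = 0.163).

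The libraries held 25568277 to 31907141 reads in genes. Granulosa markers were expressed, with Inha, which encodes an inhibin subunit, at 1210 to 2140 CPM and the granulosa transcription factor Foxl2 at 110 to 162 CPM. Fshr, the FSH receptor, stayed at or under 0.366 CPM and Amh, a hormone of growing follicles, at or under 0.67 CPM. Cyp17a1, the theca enzyme of androgen synthesis, also stayed at or under 0.366 CPM, and 5 oocyte markers summed to at most 1.55 CPM. Other markers listed for theca and stroma were abundant, with Col1a1 at 1340 to 1580 CPM and Acta2 at 815 to 1950 CPM. So were the surface epithelium keratins Krt18 (165 to 187 CPM) and Krt8 (95.3 to 108 CPM). In the siRNA 7 pools, 10 granulosa markers summed to 2370 to 3170 CPM and 8 theca and stroma markers to 2490 to 2980. The share of other cells was not tested. Replicates of a pool sat close together. On the first principal component of log2 CPM, which held 54.9% of the variance, pool 2 lay at 28.1 and 29.7, pools 1 and 4 between −4.64 and −2.12, and pool 3 at −24 and −21.8.

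Of 14056 genes tested, 6692 (47.6%) differed between the siRNA 7 pools and pool 2 at an adjusted p below 0.05. They divided into 3130 higher (22.3%) and 3562 lower (25.3%) in the siRNA 7 pools. These 2 percentages are the background for every gene group below. Most differences were small, with a median absolute log2 difference of 0.255 among called genes and a 90th percentile of 0.736. Without composition scaling the median of all genes shifted to 0.066 and 62.9% of the 7409 calls were higher, against 46.8% with it, so the balance of small rises and falls depends on scaling.

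Larger differences were fewer. Called genes with no overlap between the siRNA 7 and pool 2 libraries numbered 2650 higher (18.9%) and 3194 lower (22.7%). Among these, 175 genes (1.25%) were at least halved in the siRNA 7 pools and 131 (0.932%) at least doubled. All 175 halved and all 131 doubled genes were also called without composition scaling. DESeq2 called 164 of the halved and 89 of the doubled genes, and a fit with the 3 scramble libraries in the spread called 134 and 57. Leaving out 1 pool 2 library kept 163 or 166 of the halved and 88 or 91 of the doubled genes, and 129 and 33 were called among genes above 1 CPM in all 8 libraries. Most of the 131 doubled genes thus either were not above 1 CPM in every library or lost their call under that filter. In scramble replicates 2 and 3 the mean level lay nearer to pool 2 than to the siRNA 7 pools for 166 of the 175 halved genes (94.9%) and for 102 of the 131 doubled genes (77.9%). Over all called genes this share was 81.2%, so the doubled genes did not exceed it. Scramble replicate 1 stands apart from the other libraries of the series. With it included the shares were 84.6% for halved, 73.3% for doubled and 59.6% for all called genes. In bulk RNA, fewer cells of a type and less RNA per cell cannot be told apart.

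Ei24, an endoplasmic reticulum protein gene induced by p53 and involved in autophagy, fell most. Its level was 38.1 and 35.1 CPM in pool 1, 31.6 and 31.4 in pool 3, 34.3 and 36.2 in pool 4, and 145 and 140 in pool 2. The 6 siRNA 7 libraries all lay far below both pool 2 libraries, which were near scramble (130 to 149 CPM). The log2 difference was −2.05 ± 0.03 (SE, adjusted p = 1.24e-20), a 4.13-fold lower level.

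Cldnd1, which encodes a claudin-domain membrane protein, was lower in the same libraries. It stood at 70.7 and 65.8 CPM in pool 1, 51.4 and 50.4 in pool 3, 69.1 and 67.8 in pool 4, and 240 and 230 in pool 2. Pool 3 was lowest and scramble (182 to 220 CPM) was near pool 2. The log2 difference was −1.92 ± 0.03 (adjusted p = 7.06e-21).

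The other 6 of the 8 largest decreases belong to unrelated functions. Pcbd1 encodes a dehydratase that recycles the tetrahydrobiopterin cofactor, Cdo1 an enzyme of cysteine breakdown, and Tph1 a rate-limiting enzyme of serotonin synthesis. Myl12b encodes a myosin regulatory light chain, Nme1 a nucleoside diphosphate kinase, and Eri3 an exoribonuclease family protein. Pcbd1 fell by 1.95 ± 0.08, Cdo1 by 1.89 ± 0.05, Tph1 by 1.75 ± 0.07, Myl12b by 1.71 ± 0.03, Nme1 by 1.70 ± 0.03 and Eri3 by 1.67 ± 0.04 on the log2 scale, with adjusted p at or below 1.6e-14. Cdo1 differed most among the siRNA 7 pools, with 16.5 and 16.3 CPM in pool 1, 17.1 and 17.6 in pool 4 and only 7.77 and 7.9 in pool 3, beside 47.9 and 49.3 in pool 2. Myl12b was level across them, with 49.5 and 48 CPM in pool 1, 45.3 and 44.7 in pool 3 and 44.9 and 46.9 in pool 4, beside 156 and 148 in pool 2.

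Close relatives of these genes separated from them. Nme2, the neighbouring and similar kinase gene, did not differ, with 121 to 135 CPM in the siRNA 7 pools and 131 and 126 in pool 2 (log2 difference −0.01 ± 0.03, adjusted p = 0.87). Nme1 stood at 40.9 to 51.9 CPM beside 155 and 153. Myl12a, the paralog of Myl12b, was lower by 0.10 ± 0.03 only (adjusted p = 0.00112), with 615 to 653 CPM beside 688 and 667. Nme2 and Myl12a were added after the values were seen, and reads that paralogs share cannot be separated in the deposited counts.

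**Figure D1:**
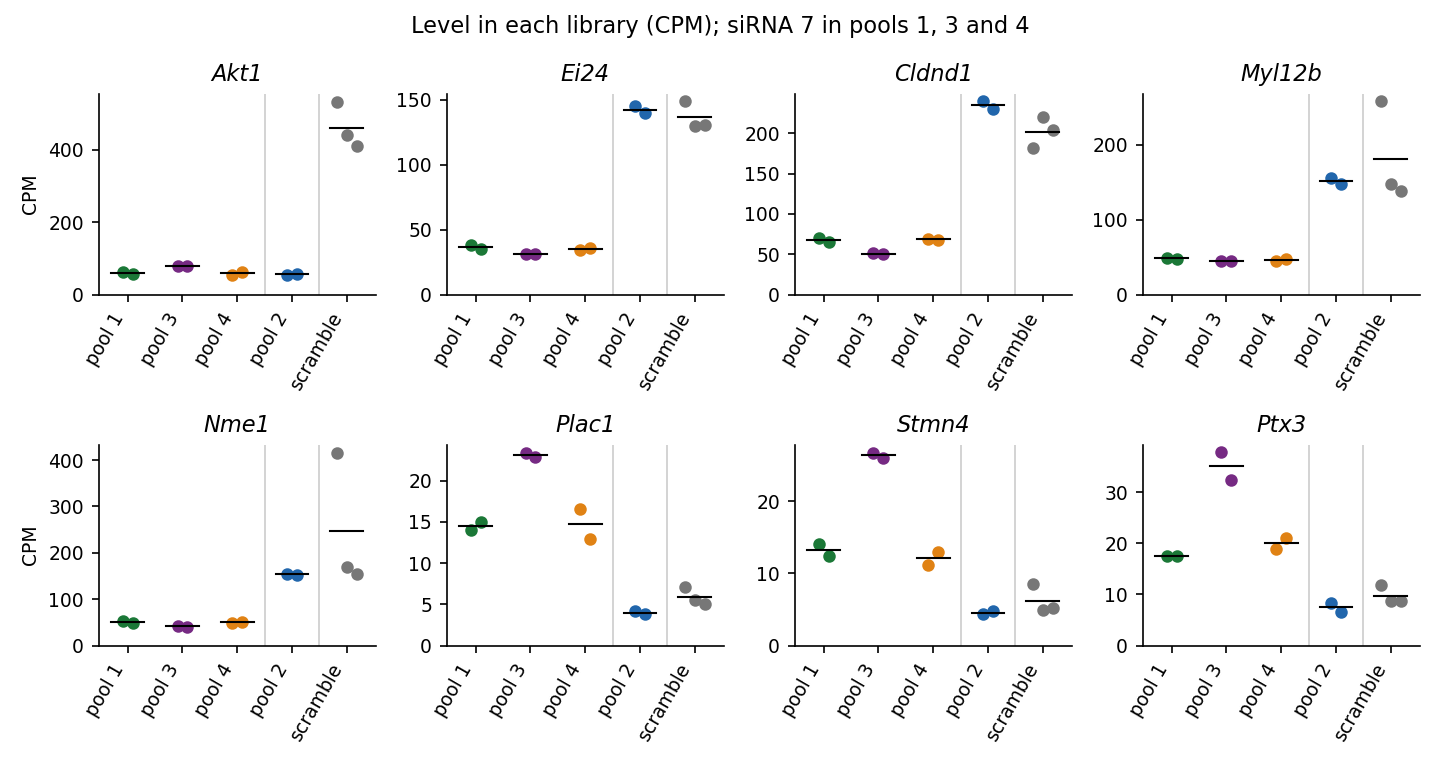
Level of 8 genes in each library, in CPM on linear axes that start at 0. Points are libraries (2 per pool, 3 for scramble) and lines are group means. Ei24, Cldnd1, Myl12b and Nme1 lie well below pool 2 in all 6 siRNA 7 libraries, while Plac1, Stmn4 and Ptx3 lie above it, highest in pool 3, and Akt1 is low in all 4 pools.

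Many genes that were at least halved hold the same run of bases in their 3' UTRs. All 7-base words, 16384 in number, were counted in the 3' UTRs of genes at least halved and of all genes with a 3' UTR of at least 50 bases, on the transcribed strand. The word with the largest excess was GTGCCAC. It occurred in 85 of 167 halved genes (50.9%), in 1307 of all 12759 genes (10.2%) and in 4 of 100 doubled genes (4.0%). The next word, TGTGCCA, overlaps it by 6 bases and occurred in 39.5% of halved genes and 15.7% of all. The reverse complement, GTGGCAC, was in 4.79% of halved genes and 9.43% of all, and the same bases read backwards, CACCGTG, in 4.79% and 4.74%. Median 3' UTR length was 1392 bases in halved genes, 529 in doubled genes and 1066 in all. These shares were not matched for length, and short 3' UTRs have less room for any word. This search was added after the values were seen and describes these genes without a test.

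Each of the 8 largest decreases has the word in its 3' UTR, and Cldnd1, Tph1 and Myl12b have it 2 times. The sites of 7 of these genes are shown to let the shared word be read in its setting, with 10 bases on each side and the word in capitals. Sequences, written 5' to 3' on the transcribed strand, are from GENCODE M21 on GRCm38, the same assembly as mm10.
Ei24, last exon (exon 11 of 11), chr9:36779408-36779434, minus strand: ttctggacaaGTGCCACtgcatcatag
Cldnd1 site 1, last exon (exon 5 of 5), chr16:58733196-58733222, plus strand: tttatatacaGTGCCACtaaataccat
Cldnd1 site 2, same exon, chr16:58733734-58733760, plus strand: aggattttcaGTGCCACcaaaccattg
Pcbd1, last exon (exon 4 of 4), chr10:61094059-61094085, plus strand: acctttctctGTGCCACtctcctcact
Tph1 site 1, last exon (exon 11 of 11), chr7:46647179-46647205, minus strand: tatagttcacGTGCCACgtgatgccca
Tph1 site 2, same exon, chr7:46645048-46645074, minus strand: tcatgttacaGTGCCACatacacttat
Myl12b site 1, last exon (exon 4 of 4), chr17:70974225-70974251, minus strand: gacctactgcGTGCCACttagtttctc
Myl12b site 2, same exon, chr17:70974176-70974202, minus strand: ggcctactgtGTGCCACttagttgaga
Nme1, last exon (exon 5 of 5), chr11:93959248-93959274, minus strand: gcagtgttacGTGCCACtgttagatta
Eri3, last exon (exon 9 of 9), chr4:117674241-117674267, plus strand: tgctgtgaacGTGCCACttgaataaag

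Akt1, the intended target, carries the word 1 time, in its coding sequence (exon 10 of 14) and not in its 3' UTR.
Akt1 coding site, chr12:112657101-112657127, minus strand: atcaaggacgGTGCCACtatgaagaca
Of all coding sequences, 13.6% hold the word. The longest run of bases that a 3' UTR site above shares with the Akt1 site around the word is 9, in Cldnd1 site 1. The sources used here give no siRNA sequence, so whether the word matches siRNA 7 was not tested.

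Genes with more copies of the word differed more. The word was picked from the halved genes of these same libraries, and those genes are among the ones counted here. The 11452 genes with no copy in the 3' UTR had a median log2 difference of 0.02, and 23.5% of them were called lower. With 1 copy (1155 genes) the median was −0.17 and 53.7% were lower. With 2 or more copies (152 genes) the median was −0.38 and 70.4% were lower, while 5 genes (3.29%) were higher. Genes with the word in the coding sequence only (1547) had a median of −0.06, and 36.2% were lower.

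The relation to copy number held in each siRNA 7 pool. In each class of 3' UTR length, genes with the word were lower than genes without it. For 2 or more copies the median difference from pool 2 was −0.34 in pool 1, −0.47 in pool 3 and −0.37 in pool 4. Against scramble replicates 2 and 3 the siRNA 7 pools had medians of 0.02, −0.15 and −0.41 for 0, 1 and 2 or more copies, and pool 2 had 0, 0.01 and 0. With scramble replicate 1 included, the siRNA 7 pools had 0.01, −0.1 and −0.29. Pool 2 then had 0, 0.1 and 0.19, so its medians were flat only with that replicate left out. Genes with the word tend to have longer 3' UTRs (median 2438 bases, against 964 without it). The median was 2301 bases with 1 copy and 3734 with 2 or more. Copy number was not examined within a length class. Within 5 equal classes of 3' UTR length, genes with the word had medians between −0.36 and −0.16, and genes without it between −0.01 and 0.04.

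**Figure D2:**
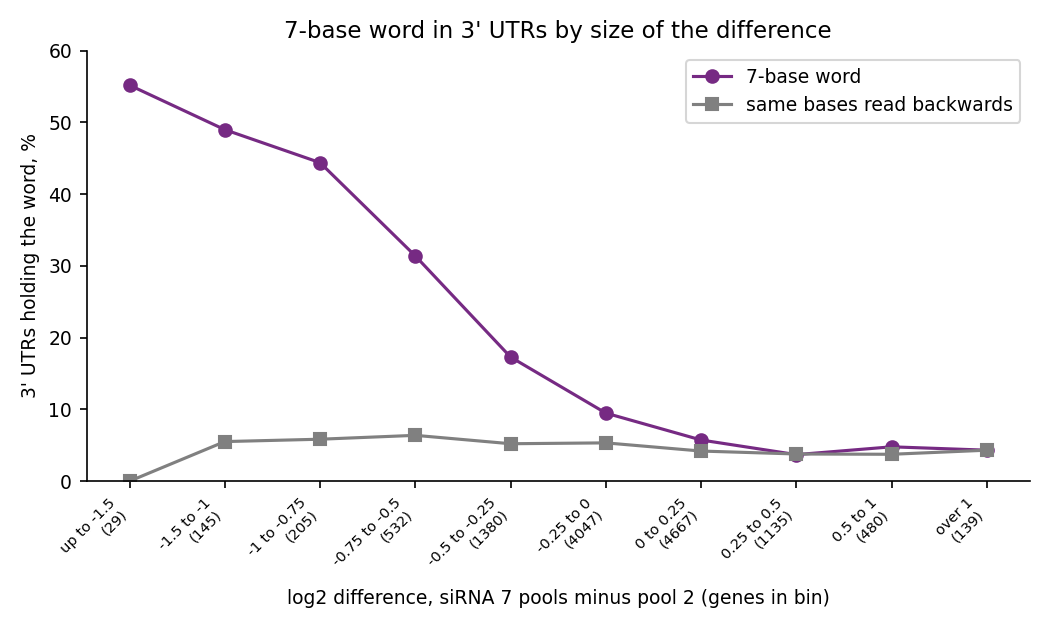
Share of genes whose 3' UTR holds the 7-base word (circles) or the same bases read backwards (squares), in percent, by log2 difference between the siRNA 7 pools and pool 2, with the number of genes per bin in brackets. The share falls from 55.2% of genes with a log2 difference up to −1.5 to 4.32% of genes over 1, while the backwards word stays between 0% and 6.39%. The word was picked for its excess in the halved genes, so its high share in the bins up to −1 follows largely from that choice. The backwards word was not picked this way.

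**Figure D3:**
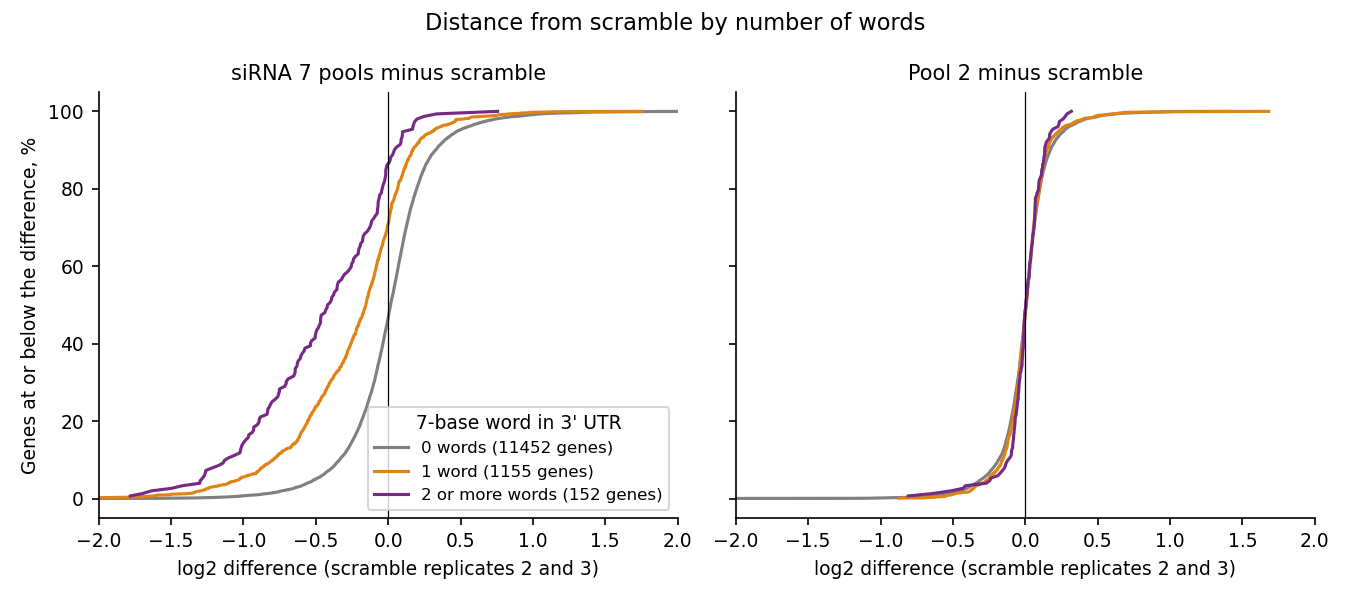
Cumulative share of genes, in percent, by log2 difference from scramble replicates 2 and 3, for the siRNA 7 pools (left) and pool 2 (right), with genes divided by copies of the word in the 3' UTR. The curves separate on the left, with medians of 0.02, −0.15 and −0.41, and lie on each other near 0 on the right. The word was picked from genes halved in the siRNA 7 pools against pool 2. Scramble replicate 1 is left out, and with it the pool 2 medians were 0, 0.1 and 0.19.

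The word was absent from the 3' UTRs of 82 of the 167 halved genes. It was also present in some genes that rose, such as Adgrg3, which has 1 copy and a log2 difference of 1.98 ± 0.14. Of the 1307 genes with the word, 113 (8.65%) were called higher. In the gene lists below, 3 FOXO genes with the word were called higher. The steroid, cholesterol, fatty acid, DNA replication and p53 lists had 1 such gene each. The share of lowered genes with the word was 40.3% when genes lower by 0.5 log2 or more were taken, and 22.4% when all genes called lower without overlap were taken.

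Among the 8 largest increases, Plac1, a gene best known from placenta, rose most. It stood at 14 and 15 CPM in pool 1, 23.4 and 22.9 in pool 3, 16.5 and 12.9 in pool 4, and 4.16 and 3.8 in pool 2, a 4.26-fold rise (log2 difference 2.09 ± 0.10, adjusted p = 3.16e-13). Stmn4, a microtubule-regulating stathmin of neurons, rose to 14.1 and 12.4 CPM in pool 1, 26.7 and 25.9 in pool 3 and 11.2 and 13 in pool 4 from 4.36 and 4.74 in pool 2. In both genes the pool 3 libraries were the highest. No siRNA 7 library overlapped pool 2, which was a condition for naming the 8 genes. Ptx3, which encodes a pentraxin of the cumulus matrix formed at ovulation, rose by 1.62 ± 0.09 on the log2 scale, with 32.5 and 37.8 CPM in pool 3, 17.5 to 21 in pools 1 and 4, and 6.6 and 8.38 in pool 2. Atg9b, an autophagy membrane protein gene, rose by 1.75 ± 0.09, and Vgf, a secreted neuropeptide precursor gene, by 1.58 ± 0.13. Adgrg3, an adhesion G protein-coupled receptor gene (1.98 ± 0.14), Sdcbp2, a syntenin gene (1.67 ± 0.14), and Ivl, which encodes involucrin of the keratinocyte envelope (1.64 ± 0.14), completed the 8. The adjusted p of all 8 was at or below 4.6e-09, and their scramble levels lay below every siRNA 7 library except for Vgf in scramble replicate 1 (5.49 CPM).

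The siRNA 7 pools were not alike in size of effect. Among pools 1, 3 and 4 themselves, 3356 genes (23.9%) differed. Against the shared pool 2 libraries, pool 3 had 3500 higher (24.9%) and 3894 lower (27.7%) genes, pool 1 had 1931 (13.7%) and 2657 (18.9%), and pool 4 had 2033 (14.5%) and 2638 (18.8%). The 175 halved genes had a median log2 difference of −1.49 in pool 3, −1.09 in pool 1 and −1.13 in pool 4, and pool 3 had the largest fall in 152 of them. For the 131 doubled genes the medians were 1.64, 1.23 and 1.17, and pool 3 had the largest rise in 103. Pool 3 was also the pool with the most Akt1 mRNA left, and what sets it apart was not tested.

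**Figure D4:**
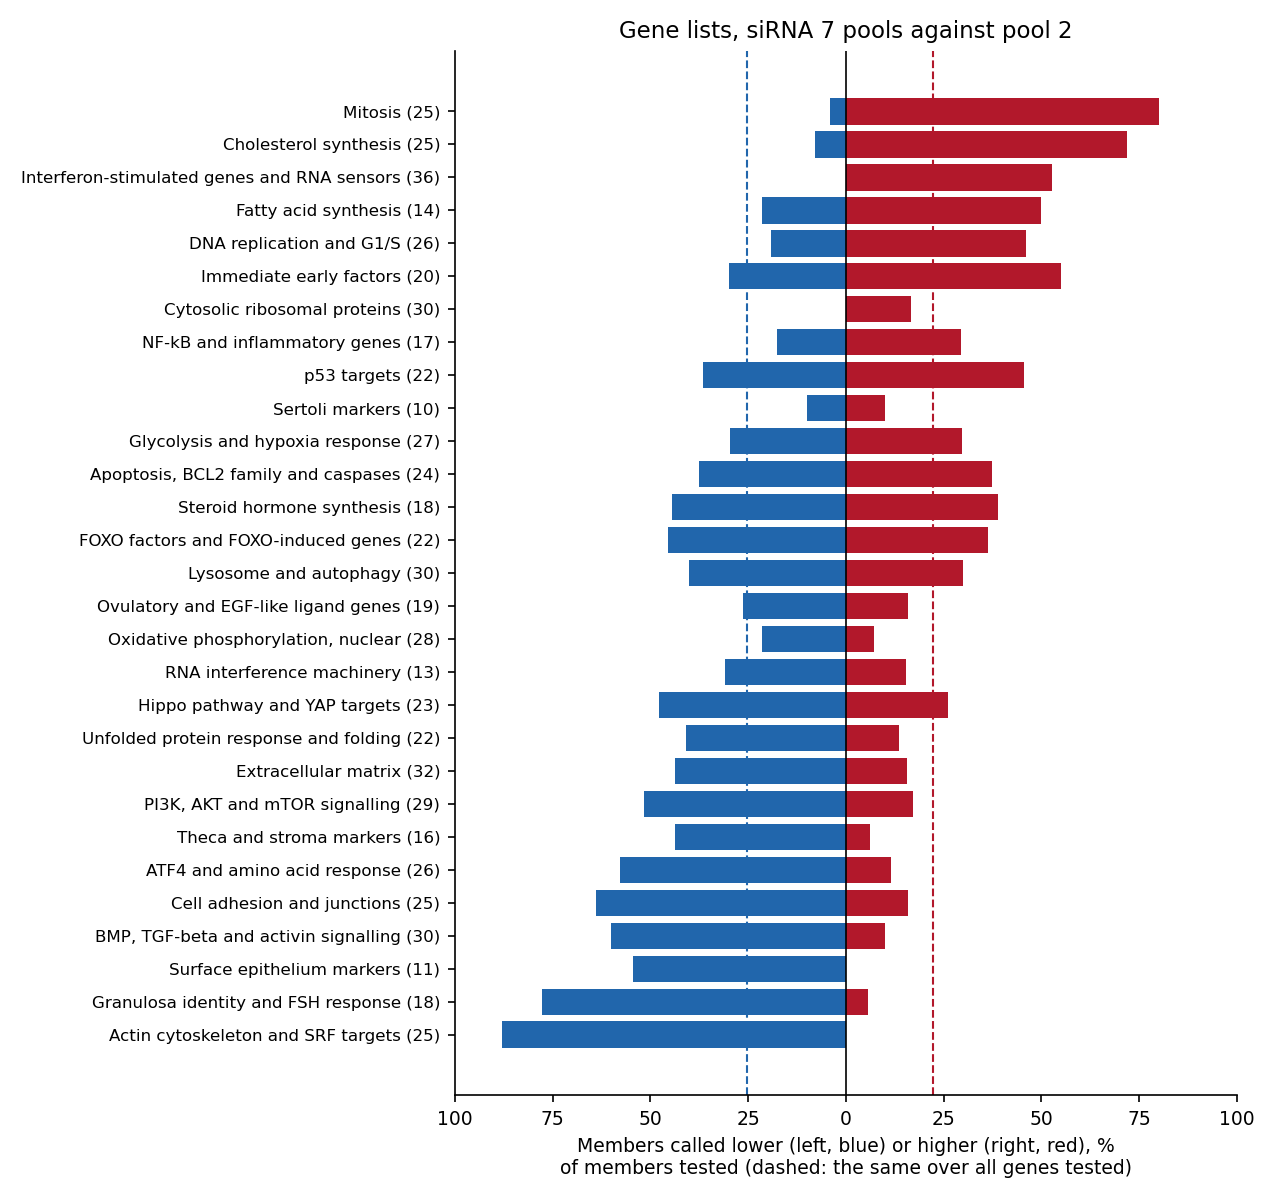
Share of the tested members of each gene list called lower (left, blue) or higher (right, red) in the siRNA 7 pools, in percent, with the number tested in brackets. Lists with under 10 tested members are left out, and dashed lines mark the same shares over all 14056 genes (25.3% and 22.3%). Actin and granulosa genes extend farthest to the left, mitosis and cholesterol genes farthest to the right.

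Actin cytoskeleton genes and targets of SRF, the transcription factor that reads actin dynamics, fell together. Of 25 tested, 22 were lower and 0 higher, with a median log2 difference of −0.54 beside 0.01 for all genes, and all 22 lowered genes kept the siRNA 7 libraries below pool 2. Srf itself was halved, with 29.2 to 38.4 CPM in the siRNA 7 pools and 72.9 and 72.3 in pool 2 (−1.05 ± 0.04, adjusted p = 6.87e-15). Myl9, a smooth muscle myosin light chain, fell by 1.20 ± 0.03, from 329 and 325 CPM in pool 2 to 161 and 168 in pool 1, 112 and 108 in pool 3 and 153 and 166 in pool 4. Lmod1, an actin filament nucleator, fell by 1.02 ± 0.04. Abundant cytoplasmic actins fell less, Actb by 0.35 ± 0.03 and Actg1 by 0.38 ± 0.04. The summed level of the list was 18200 to 20100 CPM in the siRNA 7 pools and 25200 to 26200 in pool 2. Of the 22 lowered genes 3 hold the word in the 3' UTR, Srf, Myh9 and Lmod1. Members not called were Pfn1 (−0.02), Actn1 (0.05) and Vil1 (0.20).

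Actin genes are also markers of contractile stroma, so the stromal markers stand beside them. The summed level of 8 theca and stroma markers was 2490 to 2980 CPM in the siRNA 7 pools and 3710 to 3830 in pool 2. Acta2, smooth muscle actin and a member of both lists, made up most of that gap, with a mean of 999 against 1910 CPM. Pdgfra (64.3 against 61.4 CPM) and Col1a1 (1450 against 1490 CPM), markers of fibroblastic stroma, were not called, and Pdgfrb was higher by 0.11 (adjusted p = 0.0111). Dcn, a matrix proteoglycan gene of stroma, was lower with 156 against 197 CPM (−0.37, adjusted p = 2.33e-08), and Nr2f2 was lower as well (−0.20, adjusted p = 0.00107). Of the wider list of 16 theca and stroma genes, 7 were lower and 1 higher, and of 11 surface epithelium genes 6 were lower (3 without pool 2 replicate 1), among them Upk3b (−0.70 ± 0.04) and Upk1b (−0.58 ± 0.06). The keratins Krt7, Krt8, Krt18 and Krt19 of that epithelium were not called, with log2 differences of −0.03 to 0.02. Endothelial genes numbered 3 higher of 8 (5 without pool 4 replicate 2, 2 with pool 2 replicate 1 or replicate 2 left out, and 1 against the spread among pools), at a sum of 24.1 to 28.7 CPM beside 21.1 to 23.3, and 1 of 4 immune genes rose. The part of other cells in these differences was not tested.

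Genes of granulosa identity and the FSH response were mostly lower. Of 18 tested, 14 were lower and 1 higher (median −0.29). Fst, which encodes the activin-binding protein follistatin, fell from 53.8 and 66.3 CPM in pool 2 to 35.7 and 32.1 in pool 1, 26.7 and 24.2 in pool 3 and 28.3 and 34.9 in pool 4 (−1 ± 0.07, adjusted p = 9.25e-11). Esr2, estrogen receptor beta, fell by 0.66 ± 0.04 and holds the word. Hsd17b1, which converts estrone to estradiol, fell by 0.65 ± 0.05. The inhibin and activin subunit genes Inhbb (−0.55), Inha (−0.39) and Inhba (−0.27) were all lower. Aromatase, Cyp19a1, was near its floor at 1.78 to 2.55 CPM and was not called (−0.16), and Amhr2, the receptor of AMH, rose slightly (0.16). The median was −0.42 in pool 3, −0.22 in pool 1 and −0.21 in pool 4.

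Steroid hormone synthesis changed in both directions. Of 18 tested, 7 were higher and 8 lower. Star, which carries cholesterol into mitochondria for steroid synthesis, rose from 399 and 398 CPM in pool 2 to 582 and 570 in pool 1, 598 and 615 in pool 3 and 582 and 574 in pool 4 (0.56 ± 0.03, adjusted p = 1.67e-13). The scramble libraries lay between, at 454 to 539 CPM. Srd5a1, steroid 5-alpha-reductase, rose by 0.53 ± 0.10. The 1 list member with the word in its 3' UTR was among the higher genes. Cyp11a1, the side-chain cleavage enzyme, was not called (0.06). Nr5a1, the orphan receptor that activates many of these genes, was lower (−0.45). The lower count was 4 without pool 2 replicate 2, and 4 when spread among the siRNA 7 pools counted as error.

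Cholesterol synthesis genes rose together. Of 25 tested, 18 were higher and 2 lower (median 0.27), and the summed level was 3760 to 4040 CPM in the siRNA 7 pools beside 3300 to 3510 in pool 2. Insig1, a feedback regulator of the SREBP pathway, rose from 67.3 and 71 CPM in pool 2 to 97.7 to 121 in the siRNA 7 pools (0.63 ± 0.04, adjusted p = 8.71e-12). Pmvk, phosphomevalonate kinase, rose by 0.59 ± 0.06 and Dhcr7, which makes the last step to cholesterol, by 0.54 ± 0.03. Srebf2, the master regulator, was not called (0.01). Scramble also exceeded pool 2, with list medians of 0.26, 0.43 and 0.33 in its 3 libraries. Of 14 fatty acid synthesis genes 7 were higher and 3 lower, with the ligase Acsl3 up by 0.47 ± 0.05 and the elongase Elovl5, which holds the word, down by 0.55 ± 0.03.

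Most transcripts listed under BMP, TGF-beta and activin signalling were lower, inhibitors of the pathway among them. Of 30 tested, 18 were lower and 3 higher (median −0.17), and without composition scaling 16 were lower and 6 higher (median −0.11). Among receptors, Acvr1b, an activin type I receptor that holds the word, fell from 16 and 16.2 CPM to between 6.89 and 8.78 (−1.02 ± 0.08, adjusted p = 3.58e-10). Bmpr1b, a BMP receptor of granulosa cells, fell by 0.87 ± 0.06, Bmpr2 by 0.66 and Bmpr1a by 0.43. Grem1, a secreted BMP antagonist, fell by 0.94 ± 0.08. The BMP-responsive genes Id3 (−0.62), Smad6 (−0.64) and Id1 (−0.34) were lower as well, and Smad1 fell by 0.44. The ligand genes Bmp6 (0.47) and Tgfb1 (0.29) and the transducer Smad3 (0.12) were the 3 that rose.

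Adhesion genes leaned lower, and matrix genes did so less firmly. Of 25 adhesion and junction genes, 16 were lower and 4 higher (median −0.16). Itga1, a collagen-binding integrin (−1.32 ± 0.06), and F11r, a tight junction protein (−1.22 ± 0.03), were halved or more, and like Cldnd1 both hold the word. F11r stood at 170 to 222 CPM in the siRNA 7 pools and 471 and 469 in pool 2. Gja1, the connexin of granulosa gap junctions, fell by 0.69. Cldn1 rose by 0.87. Of 32 matrix genes, 14 were lower and 5 higher, with the laminin Lama1 (−0.86 ± 0.03), the collagen Col11a1 (−0.67 ± 0.03) and nidogen Nid2 (−0.67 ± 0.03) the largest falls and fibronectin, Fn1, the largest rise (0.29). The collagens Col1a1 and Col1a2 were not called (−0.04 and −0.05). The matrix median was −0.07, and −0.01 without composition scaling (12 lower and 8 higher). It was −0.13 without pool 2 replicate 1 and 0 without pool 2 replicate 2. Without pool 2 replicate 1 the matrix counts were 20 lower and 4 higher, and without pool 2 replicate 2 they were 12 and 8.

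Hippo pathway genes and targets of its effector YAP went both ways. Of 23 tested, 11 were lower and 6 higher. The scaffold Amot fell by 0.50 ± 0.05 and the kinase Stk3 by 0.43 ± 0.04, and both hold the word, whereas the kinase Lats2 (0.25) and Yap1 itself (0.20) rose. Ctgf, a YAP target, rose from 995 and 972 CPM in pool 2 to between 1270 and 1610 (0.51 ± 0.03, adjusted p = 1.04e-12), highest in pool 3. The targets Ankrd1 (0.25) and Cyr61 (0.12) rose with overlap between groups. Without composition scaling the list median turned from −0.04 to 0.02.

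Of 29 PI3K, AKT and mTOR genes, 15 were lower and 5 higher (median −0.09). Log2 differences over all members tested ran from −0.66 to 1.25. No overlap with pool 2 was seen for 14 of the lower and 4 of the higher genes. The higher count was 9 without composition scaling (median −0.03) and 2 against the spread among the siRNA 7 pools. The AKT-activating kinase Pdpk1 fell from 116 CPM in both pool 2 libraries to 75.9 to 89.3 (−0.47 ± 0.03, adjusted p = 9.22e-12), and the related kinases Sgk1 and Sgk3 by 0.47 ± 0.03 and 0.66 ± 0.11. Mtor fell by 0.33 and the catalytic subunit Pik3ca, which holds the word, by 0.32. Akt2 (0.03) was not called. Of 22 FOXO factors and FOXO-induced genes 10 were lower and 8 higher. The word was in the 3' UTR of 7 of them, of which 3 were lower and 3 higher. Foxo1, the main factor in granulosa cells, fell from 46.7 and 56.3 CPM to between 28.2 and 37.3 (−0.65 ± 0.06), Foxo6 by 0.67 ± 0.06 and Foxo4 by 0.30, while Foxo3 rose by 0.17. Without pool 2 replicate 1, 5 of the 22 were higher.

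Mitosis genes rose. Of 25 tested, 20 were higher and 1 lower (median 0.23). Ube2c, a ubiquitin-conjugating enzyme of mitotic exit, rose from 84.2 and 79.3 CPM to 105 and 102 in pool 1, 128 and 135 in pool 3 and 100 and 104 in pool 4 (0.45 ± 0.03, adjusted p = 6.18e-10). The spindle protein genes Prc1 and Cenpf rose by 0.40 ± 0.03 and 0.39 ± 0.03. Aurka, a centrosome kinase, was the 1 that fell (−0.28). The median was 0.38 in pool 3 beside 0.13 in pool 1 and 0.16 in pool 4, and with differences among the 3 pools counted as error 10 members stayed higher. Of 26 DNA replication and G1/S genes 12 were higher and 5 lower (median 0.05), among them the licensing factor Cdt1 (0.28 ± 0.05). E2f2, which holds the word, fell by 0.78 ± 0.07. Without pool 2 replicate 2, 7 of the 26 were higher.

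p53 target genes and apoptosis genes were divided. Of 22 p53 targets, 10 were higher and 8 lower. Beside Ei24, Sesn2 fell from 48.7 and 49 CPM to 21.8 to 25.2 (−1.08 ± 0.05, adjusted p = 5.69e-14) and Sesn1 by 0.61 ± 0.06. Both sestrins, which restrain mTOR complex signalling, hold the word. The stress cytokine Gdf15 rose by 1.16 ± 0.13. Of 24 BCL2 family, caspase and related genes 9 were higher and 9 lower. Bmf (−1.09 ± 0.12), Bok (−0.79 ± 0.05) and Bak1 (−0.57 ± 0.03), all pro-apoptotic, fell the most among called genes without overlap, whereas the pro-apoptotic Bbc3 (0.45) and Bax (0.30) and the protective Bcl2l2 (0.35) rose.

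Interferon-stimulated genes rose unevenly. Of 36 tested, 19 were higher and 0 lower (median 0.40), but no overlap with pool 2 was seen for 5 of the 19. Rsad2, the antiviral protein viperin, stood at 22.3 and 37.2 CPM in pool 1, 7.59 and 10.9 in pool 3, 22.2 and 8.78 in pool 4, and 7.3 and 6.33 in pool 2 (1.25 ± 0.25, adjusted p = 0.000357). Pool 1 was high, pool 3 near pool 2, and the pool 4 replicates far apart. Oas3, a sensor of double-stranded RNA, ranged from 0.864 to 2.78 CPM beside 0.811 and 0.553 (1.25 ± 0.33, adjusted p = 0.00338). Against pool 2, 28 members were higher in pool 1, 15 in pool 4 and 2 in pool 3, and 15 of the 36 differed among these pools. Counted against the spread among pools, 2 members stayed higher, and neither Rsad2 (adjusted p = 0.0877) nor Oas3 (adjusted p = 0.0524) was called. The count was 5 without pool 2 replicate 2 (median 0.22) and 10 without pool 3 replicate 2 (median 0.35), and without pool 4 replicate 1 the median was 0.26.

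**Figure D5:**
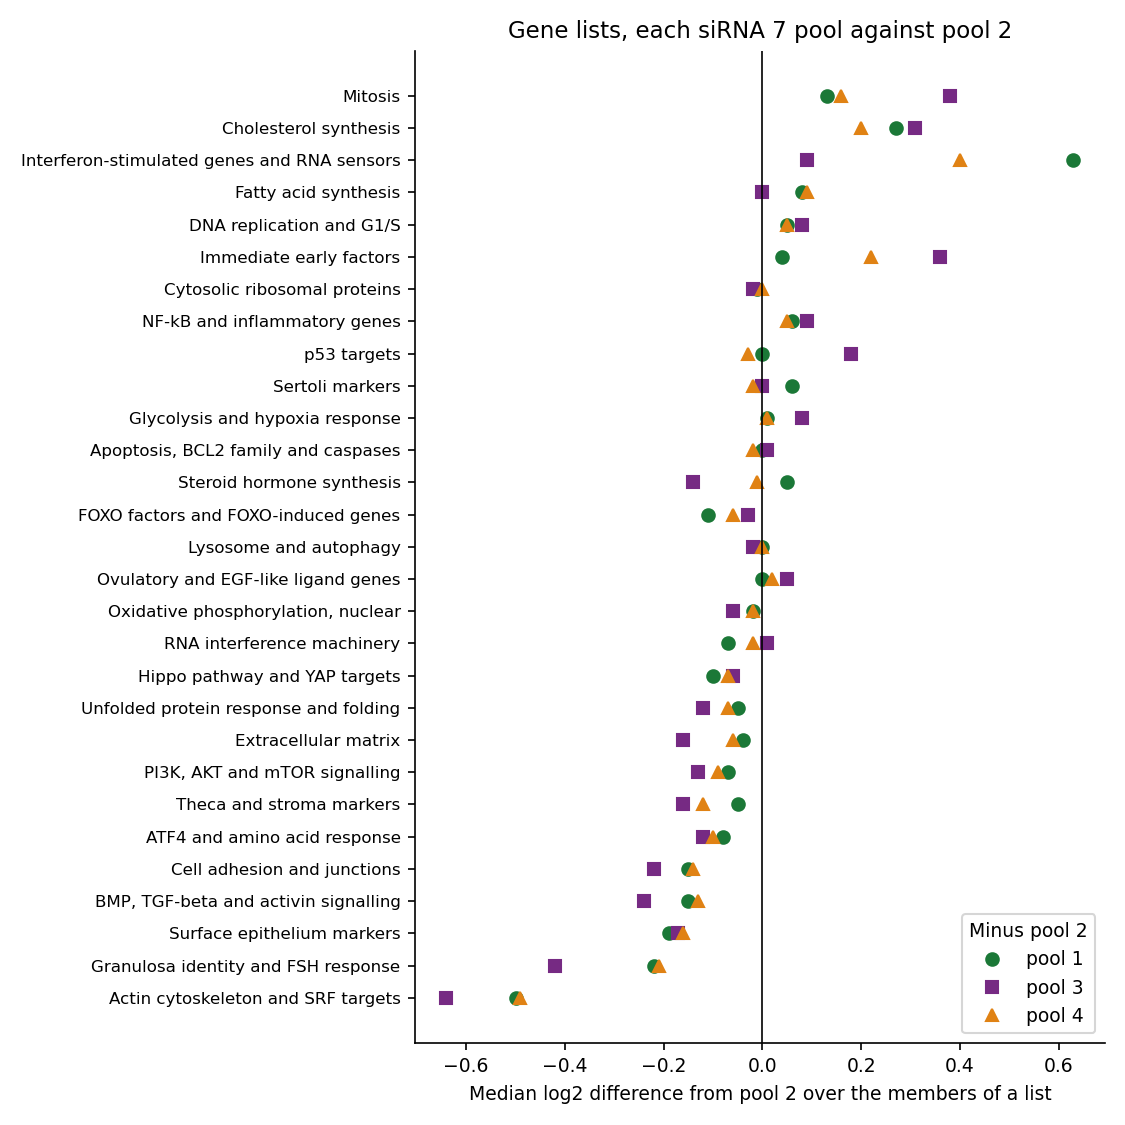
Median log2 difference from pool 2 over the members of each list, for pools 1, 3 and 4, which share the pool 2 libraries. Pool 3 (squares) lies farthest from 0 for actin (−0.64), granulosa (−0.42) and mitosis genes (0.38) and nearest to 0 for interferon-stimulated genes (0.09).

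Immediate early genes, which respond within minutes to growth signals, were 11 higher and 6 lower of 20 (median 0.22). Dusp1, a MAP kinase phosphatase gene, rose from 73.2 and 68.5 CPM to 155 in both pool 3 libraries, 95.1 and 102 in pool 1 and 111 and 109 in pool 4 (0.75 ± 0.04, adjusted p = 2.29e-13). Fos, which holds the word, fell from 49.1 and 53.9 CPM in pool 2 to 20.1 and 18.5 in pool 1, 32.6 and 30.6 in pool 3 and 31.9 and 35.3 in pool 4 (−0.91 ± 0.05). Scramble stood at 27 to 29.5 CPM, so for Fos pool 2 was the group apart. Egr1 fell by 0.62 ± 0.06, carried by pool 1 (35.4 and 31 CPM, beside 68.7 to 71.9 in pools 3 and 4 and 74.8 and 93.3 in pool 2). Scramble stood at 34.4 to 39.8 CPM, near pool 1 and below pools 2, 3 and 4. The Egr1 call was lost against the spread among pools (adjusted p = 0.174). Without pool 2 replicate 2 the lower count of the list was 3, and against the spread among pools it was 2. Of 19 ovulatory genes 5 were lower and 3 higher, and 5 and 6 without composition scaling. Beside Ptx3, the EGF-like ligand Btc fell by 0.68 ± 0.07 and the receptor Egfr by 0.58 ± 0.03, while Ptgs2 (0.01), Ereg (−0.02) and Areg (0.45) were not called. Among 17 NF-kB and inflammatory genes 5 were higher and 3 lower, with the chemokine Ccl2 rising from 1.76 and 1.66 CPM to between 3.33 and 6.41 (1.33 ± 0.14). The higher count there was 2 without pool 2 replicate 1 and 3 without pool 2 replicate 2.

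Protein folding and amino acid response genes leaned lower by small amounts. Of 22 genes of the unfolded protein response, 9 were lower and 3 higher. Pdia4, a disulfide isomerase, fell from 461 and 482 CPM to between 202 and 309 (−0.87 ± 0.03) and the chaperone Hyou1, which holds the word, by 0.52 ± 0.02, but the central chaperone Hspa5 was not called (−0.04). Of 26 ATF4 and amino acid response genes 15 were lower and 3 higher. Slc7a5, a leucine transporter that holds the word, fell by 0.96 ± 0.03, whereas the cystine transporter Slc7a11 rose by 0.56 ± 0.07. The lower count of this list was 8 without composition scaling, 9 without pool 2 replicate 1 and 7 against the spread among pools. Unfolded protein response genes called lower numbered 5 against that spread, and those higher 1 without pool 2 replicate 1.

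Lysosome and autophagy genes showed no common direction, with 12 lower and 9 higher of 30. The autophagy genes Atg5 (−1.27 ± 0.05), Ulk1 (−0.63 ± 0.03) and Atg7 (−0.54 ± 0.05) fell most, and Atg5 and Atg7 hold the word. Atg5 stood at 14.7 to 19 CPM beside 43.2 and 38.5 in pool 2. The abundant cathepsins Ctsb (−0.05) and Ctsd (0.05) were not called. In the RNA interference machinery 4 of 13 were lower and 2 higher. Ago1, Ago3 and Ago4 fell by 0.34 ± 0.03, 0.30 ± 0.04 and 0.62 ± 0.10, Ago3 and Ago4 hold the word, and Ago2, the Argonaute that cuts its targets, was not called (0.07). The higher count of this list was 4 without pool 1 replicate 1 and 6 without composition scaling.

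Energy metabolism and ribosomal protein genes had list medians between −0.04 and 0.02. Glycolysis and hypoxia genes were 8 higher and 8 lower of 27, with Ndrg1 up by 0.66 ± 0.08 and Pfkl, a phosphofructokinase, down by 0.56 ± 0.03. Of 28 nuclear genes of oxidative phosphorylation 6 were lower and 2 higher, near or under the background, and without composition scaling 1 was lower and 9 higher. Without pool 2 replicate 1 the lower count was 2. Sdhc, a succinate dehydrogenase subunit that holds the word, fell by 0.62 ± 0.03. Of 30 cytosolic ribosomal protein genes 5 were higher and 0 lower, with a median of −0.02 that became 0.04 without composition scaling. The higher count was 9 with that scaling left out, 2 without pool 2 replicate 1 and 3 without pool 2 replicate 2.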

How the data were processed

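The deposited files give raw counts, whole numbers of reads per gene symbol, which the authors did not normalize per the values themselves. Per the submitters' processing notes, the build was mm10, featureCounts 1.5.0-p2 is the counting tool named, and TopHat2, cutadapt 1.9.1 and DESeq2 are named too, as are FastQC 0.11.5 and bcl2fastq 2.15.0. Reads were single, of 75 bases, from a stranded mRNA kit. Their settings, strand use included, are not given here, so reads of paralogs or overlapping genes cannot be separated. A table of fold changes that the authors deposited was not used.

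The 92 ERCC spike-in lines (0.268% to 0.558% of reads) were dropped from 24490 gene lines. Counts were fitted with edgeR 4.0.16 in R 4.3.3 (TMM scaling, filterByExpr, 14056 genes kept, quasi-likelihood F test, two-sided, Benjamini-Hochberg threshold 0.05, no minimum fold), with 1 coefficient per pool and the contrast of the mean of pools 1, 3 and 4 minus pool 2. Differences among those 3 pools then stay out of the error, and their own test has 2 degrees of freedom. The common biological coefficient of variation was 2.87%. Counts of replicates differed beyond sampling noise (chi-square per degree of freedom 2.63 to 4.33), so no library was counted as a repeat of another. The fit was tested on simulated data. CPM are TMM-scaled, over the 8 libraries for the pools and over all 11 for scramble.

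Replicate numbers do not pair libraries by any label, and replicate deviations of the pools correlated at −0.052 to 0.092, so no block was used. The comparison and the gene lists were chosen with earlier results of these data known. Named genes are Akt1, Ei24 and Cldnd1, the 8 largest increases and decreases of called genes (average log2 CPM 2 or more, no overlap between groups), and up to 3 such members per list, passing over predicted genes, clones, pseudogenes and mitochondrial genes. A few genes chosen this way are left unreported. Uncalled examples are abundant members, and further list members were named after their values were seen. Lists are described by counts and medians without a set test. In the list results, "lower" and "higher" mean called at the threshold. 3' UTRs came from GENCODE M21, 1 coding transcript per gene, matched for 13046 genes. Alternatives included limma-voom (limma 3.58.1) and DESeq2 1.42.0.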

Additional observations from a re-analysis of the deposited data

Results flagged for a closer look

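For the named genes reported here, the 6 siRNA 7 libraries were checked for 1 library far from the other 5 by Dixon's test, which chance passes in about 1 of 20 groups. Sesn1 was 13.1 CPM in pool 3 replicate 1, below the other 5 (14.4 to 15.1). Kit, the receptor of KIT ligand, was 0.665 CPM in pool 4 replicate 1, below the other 5 (0.827 to 0.914). Both genes kept the siRNA 7 libraries on 1 side of pool 2, but this was a condition for naming them. Kit, near its floor, was not called by DESeq2 (adjusted p = 0.151). Its log2 difference of −0.64 became −0.39 without pool 2 replicate 2.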

How the results depend on the processing

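Counts of called genes stayed within 1.5 times the reported ones under RLE scaling, library size only, both filters and limma-voom, and no named gene changed direction under any alternative. Of 1829 values of named genes under the alternatives, 77 lost their call. DESeq2 called 5105 genes, and 2150 among pools 1, 3 and 4. With 2 groups, so that spread among the siRNA 7 pools counts as error, 4470 genes were called, 1894 of them higher. With the 3 scramble libraries in the estimate of spread, 743 genes were called (184 higher, 559 lower), with 140, 1036 and 139 for pools 1, 3 and 4 against pool 2. That edgeR fit called 0 genes among pools 1, 3 and 4, where 612 had an unadjusted p below 0.05. Without scramble replicate 1, an alternative chosen after seeing the data, the same fit called 6149 genes, and 2582 among those pools. Leaving out each library in turn gave 5145 to 6567 genes for the main comparison and 1874 to 3430 among pools 1, 3 and 4, the lowest without pool 3 replicate 1. The lone library of a pool was then assumed to vary like the others. With a replicate block 6693 genes were called, 6620 of them shared with the fit without the block, and no pairing of replicates was found. Leaving out a library gave 21 to 22 lowered actin genes, 12 to 14 lowered granulosa genes, 15 to 18 raised cholesterol genes and 17 to 21 raised mitosis genes. The share of lowered genes with the 7-base word was 48.8% with the longest 3' UTR of each gene, and 40.3% and 22.4% with the wider sets of lowered genes. Genes under about 1 CPM, such as Fshr and Ccl7, are limited by depth.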
